A study of Mus musculus with 6 samples.

Results

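The genes described here are 9 adhesion and trafficking genes, measured in cultures of activated OT-I cells: the selectin gene Selp, the selectin ligand genes Selplg and Cd44, the integrin chain genes Itgal, Itga4, Itgb1, Itgb7 and Itgae, and the exit receptor gene S1pr1. They were chosen by their role from 49671 genes in the count tables, with earlier results of these data known, in which Selp was among the larger decreases in BiTS against isotype. All 9 passed the filter on low counts. Their differences between treatments are therefore given as a description, and nothing is read from which of them passed a test. The RNA is described as that of OT-I CD8 T cells, which carry a transgenic T cell receptor for the SIINFEKL peptide. They were in cultures labelled as splenocytes and stimulated with that peptide on antigen-presenting cells for 48 h. Dendritic cell markers such as Xcr1 and Clec9a were present in every library, so the RNA was not from T cells alone. All 3 groups share the OT-I genotype, the peptide and the time, and they differ in the treatment, which was an isotype control, BiTS(mut) or BiTS, and each group had 2 libraries. BiTS is a bispecific molecule meant to bring the inhibitory receptor LAG-3 next to the T cell receptor, and the labels do not say what was changed in BiTS(mut). The labels also name naive primary CD8 T cells and give no age of the mice, and nothing in them says that the 2 libraries of a group came from separate mice or cultures, so a p-value here reflects no more than how these libraries scatter.

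Libraries are named by the numbers in their titles: isotype replicates 1 and 4, BiTS(mut) replicates 2 and 5, and BiTS replicates 3 and 6. Title numbers 1 to 3 form a first set and 4 to 6 a second set, each with 1 library of every treatment. The labels do not say what a set is. Gene counts per library ran from 10813123 to 15239077, and 7382 of 13996 tested genes differed between the sets, which is 52.7% (edgeR quasi-likelihood test, Benjamini-Hochberg adjusted p under 0.05), with 25.9% higher and 26.9% lower in the second set. Each treatment comparison is therefore given within sets, with the set as a block, and the values of the fit without it follow.

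Selectins start the slow rolling of blood cells along a vessel wall by binding sugars that glycosyltransferases build on carrier proteins such as PSGL-1, the product of Selplg. Integrins, each a pair of an alpha and a beta chain, then hold the cell firmly, and which beta chain an alpha chain joins decides the ligand: alpha 4 with beta 7 binds MAdCAM-1 of gut vessels, alpha 4 with beta 1 binds VCAM-1, and alpha E with beta 7 binds E-cadherin of epithelia. S1PR1 lets T cells leave lymphoid organs along a gradient of sphingosine 1-phosphate. T cells alter these receptors when they are activated.

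RefSeq promoter entries (build GRCm38.p6) were found for 5 of the 9 genes, namely Selp, Cd44, Itga4, Itgb1 and Itgb7. The 250 bases before the start are shown for Selp and Itgb7, whose libraries differed most between BiTS and both other treatments relative to their error. The Selp stretch lies at chr1:164115014-164115263 on the plus strand and the Itgb7 stretch at chr15:102231936-102232185 on the minus strand, each written 5′ to 3′ with motif matches in capitals.
Selp: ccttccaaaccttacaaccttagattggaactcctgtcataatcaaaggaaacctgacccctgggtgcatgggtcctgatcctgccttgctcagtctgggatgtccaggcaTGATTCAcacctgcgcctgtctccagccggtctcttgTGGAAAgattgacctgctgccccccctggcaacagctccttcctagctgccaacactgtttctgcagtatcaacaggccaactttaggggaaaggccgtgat
Itgb7: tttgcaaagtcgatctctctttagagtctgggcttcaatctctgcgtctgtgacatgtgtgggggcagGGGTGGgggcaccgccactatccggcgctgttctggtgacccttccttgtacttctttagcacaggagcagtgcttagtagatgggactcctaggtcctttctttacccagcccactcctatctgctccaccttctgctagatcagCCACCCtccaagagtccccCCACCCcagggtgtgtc
Selp held 1 match to TGANTCA, a loosened form of the AP-1 motif in which N is any base. This match has T at that base (TGATTCA) and lies 139 to 133 bases before the start. Selp also held 1 match to the NFAT core TGGAAA, 102 to 97 bases before the start. Itgb7 held 3 matches to the KLF/SP letters CCACCC, of which those at 36 to 31 and 17 to 12 bases before the start are on the gene's strand and that at 182 to 177 bases is on the other. On both strands, 6.73% of 32536 RefSeq promoters of this length held the loosened letters TGANTCA, 18.6% the NFAT core and 28.1% the KLF/SP letters. The search covered 7 motifs, and the other 4 were the letters AGATAA of GATA factors (in 9.97% of promoters), TTCNNNGAA of STAT factors (7.04%), GGAAGT of ETS factors (19.8%) and TGTGGT of RUNX factors (14%), which had no match in these stretches of Selp and Itgb7. A match describes the letters and is not a measured binding site.

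Per unit of transcript length, Selplg and Itgb7 were the most abundant of the 9 genes. In TPM (library-scaled transcript abundance, from the deposited counts and exon lengths), Selplg averaged 281 over the 6 libraries (238.5 to 309.8) and Itgb7 264 (218.8 to 317.8). These ranges overlapped. Itgb1 followed at 129 TPM (82.7 to 174) and Itgal at 124 (111 to 139), again with overlapping ranges, and every library of Itgb7 was above every library of both. Cd44 was at 37.1 TPM (26.7 to 48.1), below every library of Itgb1 and Itgal. Selp averaged 20.6 TPM (6.67 to 33.9), overlapping with Cd44 above it and with S1pr1 at 18.7 TPM (13.5 to 23.1) below it. Itga4 at 7.49 TPM (4.91 to 10.3) and Itgae at 3.83 TPM (2.01 to 7.42) were lowest, with ranges that overlapped each other, and all their libraries lay below all those of S1pr1. The order of neighbouring genes differed between treatments. Itgb7 lay above Selplg in both BiTS libraries (317.8 against 295.3 and 299.8 against 281.3 TPM) and below it in every isotype and BiTS(mut) library. Selp lay below S1pr1 in both BiTS libraries (15.8 against 23.1 and 6.67 against 15.6 TPM) and above it in every isotype and BiTS(mut) library. In the plot of TPM by gene, Selp spans the widest fold range of the 9 genes.

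**Figure D1:**
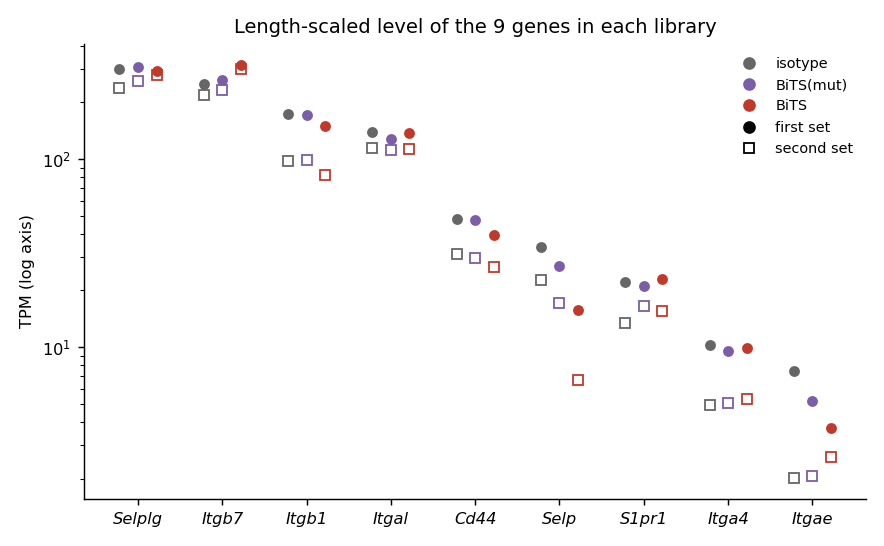
Level per transcript length (TPM, log axis) of the 9 genes in each of the 6 libraries. Colour gives the treatment, filled circles the first set and open squares the second set. Selplg and Itgb7 sit highest, with means of 281 and 264 TPM, and Itgae lowest, with a mean of 3.83 TPM.

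Selp encodes P-selectin, which platelets and endothelial cells store and bring to their surface on activation. The gene (ENSMUSG00000026580) lies at chr1:164115264-164150026 (mm10, plus strand), and its exons in the table sum to 4413 bases. Selp was at 54.0 and 43.0 CPM (TMM-scaled counts over library size) in isotype replicates 1 and 4, 44.2 and 31.5 CPM in BiTS(mut) replicates 2 and 5, and 26.3 and 12.3 CPM in BiTS replicates 3 and 6. These came from 652, 469, 682, 383, 355 and 130 counts in the same order. Both BiTS libraries were below all 4 others, while isotype and BiTS(mut) overlapped. The group means were 48.5 (SD 7.77, n = 2) for isotype, 37.9 (SD 9.02) for BiTS(mut) and 19.3 (SD 9.86) for BiTS.

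Within sets, Selp was 2.56-fold lower in BiTS than in isotype, a log2 fold change of -1.35 ± 0.13 (SE). The difference was -1.04 in the first set and -1.79 in the second, so it had the same sign in both. Without the block the value was -1.33 ± 0.38. Against BiTS(mut), BiTS was 1.98-fold lower within sets (-0.99 ± 0.13, and -0.97 ± 0.38 without the block), with -0.75 in the first set and -1.35 in the second. BiTS(mut) itself was 1.29-fold below isotype (-0.37 ± 0.12), with -0.29 and -0.45. In each set Selp thus stood in the order isotype, BiTS(mut), BiTS. The 3 comparisons share libraries pairwise, so their values are not independent of each other.

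Most markers of the known cell sources of Selp had few or no counts, while Itga2b, Pecam1 and Egfl7 were present in every library. Of 12 platelet and megakaryocyte markers, Ppbp, Gp9 and Treml1 had 0 counts in every library, and Pf4 had at most 1, while Gp1ba had up to 15 and Vwf up to 8. The summed level of that list was 51.7 and 25.7 CPM in isotype, 44.3 and 28.5 in BiTS(mut), and 39.6 and 28.9 in BiTS, the first set first, nearly all of it from the integrin chain gene Itga2b, which alone ran from 24.8 to 50.3 CPM. Of 12 endothelial markers, Cldn5 had 0 counts in every library, Kdr and Tie1 at most 1, and Cdh5 at most 3. Their sum was 17.5 and 28.7 CPM in isotype, 19.0 and 27.5 in BiTS(mut), and 19.1 and 28.0 in BiTS, again the first set first, held mostly by Pecam1 (9.19 to 14.7 CPM) and Egfl7 (6.38 to 14.4 CPM). For both lists, 0 of 2 tested genes passed in BiTS against isotype or BiTS(mut) within sets. Sele, the E-selectin gene, had 0 to 11 counts and was not tested. On the opposite strand, the exons of Selp overlap Gm16587 over 186 bases (3 to 24 counts) and Gm16548 over 438 bases (0 to 15 counts), and the strand setting of the counting is not given in the sources used here.

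Some dendritic cell markers also differed between treatments. The 18 listed genes summed to 3140 and 1665 CPM in isotype replicates 1 and 4, 3155 and 1756 CPM in BiTS(mut) replicates 2 and 5, and 2607 and 1585 CPM in BiTS replicates 3 and 6. Siglech had 0 counts everywhere and Cd209a at most 1, whereas the cross-presenting dendritic cell markers Xcr1 (10.03 to 34.2 CPM) and Clec9a (14.0 to 47.7 CPM) were present in every library. Of 16 tested, 0 were higher and 5 lower in BiTS than in isotype within sets (median log2 fold change -0.33). Against BiTS(mut), 0 were higher and 4 lower (median -0.27). Lower in BiTS than in isotype in both sets were Zbtb46, Xcr1, H2-DMb2, H2-Aa, H2-Eb1, Cd74, Fscn1, Ccl22, Ccl17 and Cd83. Flt3, Clec9a, Itgax and H2-Ab1 were lower in the first set and higher in the second, and Batf3 the reverse. In the second set, Clec9a was at 17.8 CPM in BiTS against 14.0 in isotype, and Itgax at 47.7 against 45.8. Ccr7, a member of that list, was higher in BiTS than in isotype in both sets (714.5 against 702 CPM and 508 against 433 CPM) and did not pass the test. The CD8 T cell list, at 2097 to 2804 CPM, had 3 of 11 genes higher and 0 lower in BiTS than in isotype (median 0.18). Against BiTS(mut) it had 0 higher and 1 lower (median 0.17). Of all genes, 1.81% were higher and 1.59% lower in BiTS than in isotype within sets. Against BiTS(mut) these shares were 0.272% and 0.7%. In these bulk libraries, fewer cells of a type and less RNA per cell cannot be told apart, and the part of these cell markers in the values of the adhesion genes was not tested.

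The selectin ligand genes differed less. Selplg (ENSMUSG00000048163, chr5:113818536-113832644, minus strand) was at 462 and 437 CPM in isotype, 491 and 461 in BiTS(mut), and 474 and 503 in BiTS, each pair being first and second set. BiTS was highest in the second set and between the other treatments in the first, and its difference from isotype was 0.12 ± 0.08 within sets. Cd44 (ENSMUSG00000005087, chr2:102811141-102901665, minus strand) encodes a receptor for hyaluronan that also carries selectin-binding sugars and marks activated T cells. It was at 117 and 90.5 CPM in isotype, 119 and 84.1 in BiTS(mut), and 101 and 75.5 in BiTS. BiTS was lowest in each set although the groups overlapped, with -0.24 ± 0.09 against isotype and -0.20 ± 0.09 against BiTS(mut).

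**Figure D2:**
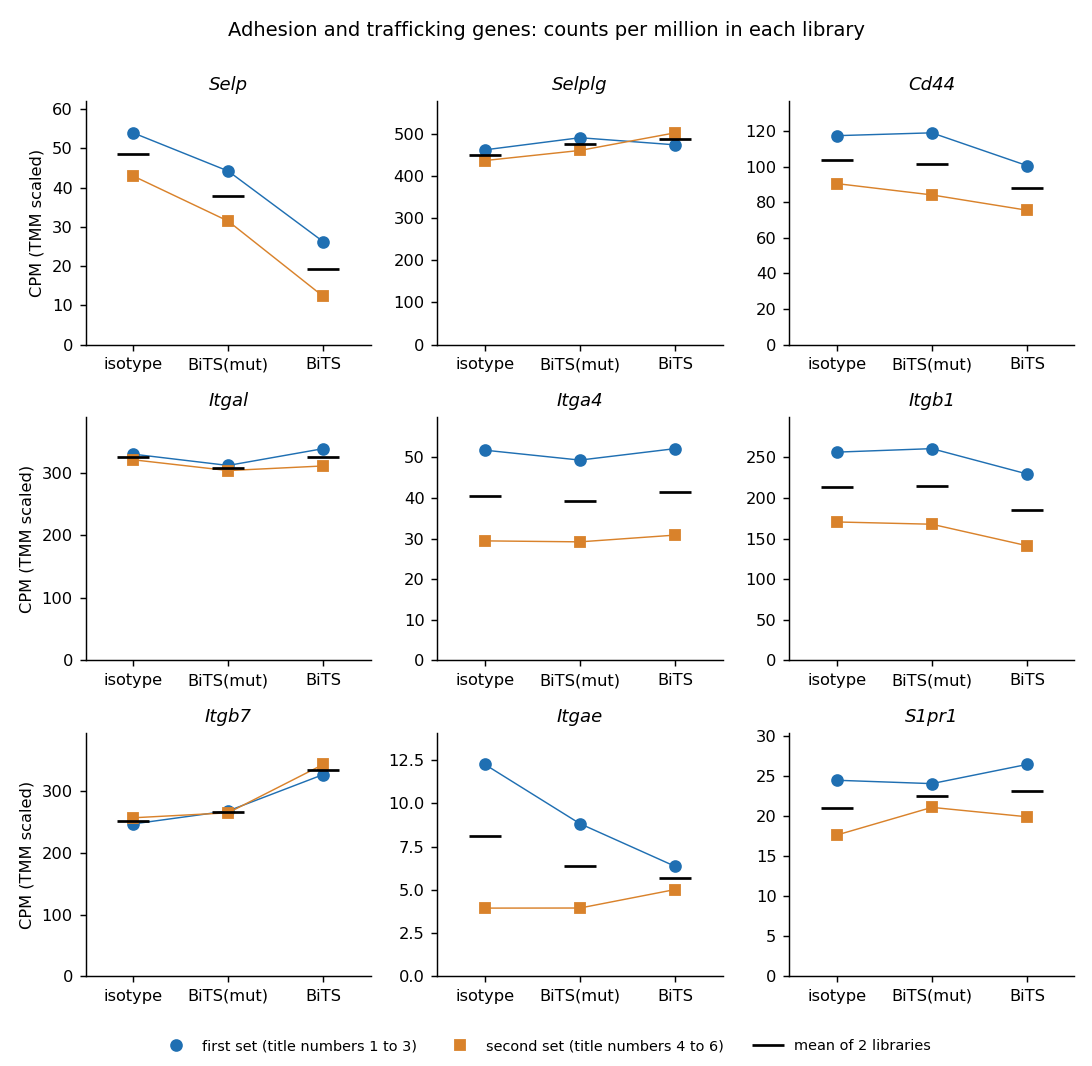
CPM (linear axes from 0) of each of the 9 genes by treatment, with a line joining the 3 libraries of a set and a bar at the mean of the 2 libraries. Selp falls along the isotype, BiTS(mut), BiTS order in both sets, from 54.0 to 26.3 and from 43.0 to 12.3 CPM, and Itgb7 is higher in both BiTS libraries than in the 4 others.

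Itgb7 encodes the beta chain shared by the gut-homing and epithelium-binding integrins. The gene (ENSMUSG00000001281) lies at chr15:102215995-102231935 (minus strand). It was at 247 and 257 CPM in isotype replicates 1 and 4, 268 and 265 CPM in BiTS(mut) replicates 2 and 5, and 327.5 and 344 CPM in BiTS replicates 3 and 6. Both BiTS libraries were above all 4 others, and the 2 libraries of each group lay close together. The group means were 252 CPM for isotype, 267 for BiTS(mut) and 336 for BiTS. Within sets, Itgb7 was 1.33-fold higher in BiTS than in isotype (log2 fold change 0.41 ± 0.08), by 0.41 in the first set and 0.42 in the second. The fit without the block gave 0.41 ± 0.13. Against BiTS(mut) it was 1.26-fold higher (0.33 ± 0.08, and 0.33 ± 0.13 without the block), by 0.29 and 0.37, and BiTS(mut) differed from isotype by 0.08 ± 0.08.

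Itgb1, the beta chain of the VLA integrins (ENSMUSG00000025809, chr8:128685654-128733200, plus strand), stood lowest in BiTS in both sets. It was at 256 and 170 CPM in isotype, 261 and 168 in BiTS(mut), and 229.5 and 141 in BiTS, the first set first. The log2 fold change of BiTS was -0.21 ± 0.08 against isotype and -0.21 ± 0.08 against BiTS(mut), and the groups overlapped across sets. Per transcript length, the ratio of Itgb7 to Itgb1 was 1.44 and 2.25 in isotype, 1.53 and 2.36 in BiTS(mut), and 2.12 and 3.62 in BiTS. In each set BiTS had the highest ratio of the 3 treatments, and BiTS replicate 3 still lay below isotype replicate 4 of the other set.

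Among the alpha chain genes, Itga4 and Itgal stayed close together over treatments. Itga4 (ENSMUSG00000027009, chr2:79255426-79333123, plus strand), the alpha chain that can pair with either beta chain, was at 51.8 and 29.4 CPM in isotype, 49.3 and 29.2 in BiTS(mut), and 52.1 and 30.9 in BiTS. The treatments almost coincided in each set, with 0.04 ± 0.11 for BiTS against isotype. Cerkl, on the opposite strand, shares 1124 exon bases with Itga4 and had 10 to 20 counts. Itgal (ENSMUSG00000030830, chr7:127296260-127335138, plus strand) encodes the alpha chain of LFA-1, the integrin that binds ICAM-1 on antigen-presenting cells. It was at 330 and 321 CPM in isotype, 312 and 304 in BiTS(mut), and 339 and 311 in BiTS, and the difference of BiTS from isotype was -0.003 ± 0.08. Its partner Itgb2 differed by 0.17 ± 0.08 and did not pass the test (adjusted p = 0.312, edgeR within sets).

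Itgae, the alpha E chain known as CD103 (ENSMUSG00000005947, chr11:73090583-73147446, plus strand), was the least abundant and had opposite signs in the sets. It was at 12.3, 8.82 and 6.36 CPM in the first-set libraries of isotype, BiTS(mut) and BiTS, from 148, 136 and 86 counts. In the second set it was at 3.94, 3.95 and 5.02 CPM in the same order, from 43, 48 and 53 counts. BiTS was thus lowest in the first set and highest in the second, with -0.93 and 0.34 against isotype, and the fit over both sets gave -0.46 ± 0.23. Leaving out 1 library at a time moved that value between -0.87 and 0.19. Haspin lies within the Itgae gene on the opposite strand but shares 0 exon bases with it.

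S1pr1 (ENSMUSG00000045092, chr3:115710433-115715072, minus strand) ran from 17.6 to 26.4 CPM over the 6 libraries. It was at 24.4 and 17.6 CPM in isotype, 24.0 and 21.1 in BiTS(mut), and 26.4 and 19.9 in BiTS. The groups overlapped, and BiTS differed from isotype by 0.14 ± 0.13 and from BiTS(mut) by 0.04 ± 0.13.

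**Figure D3:**
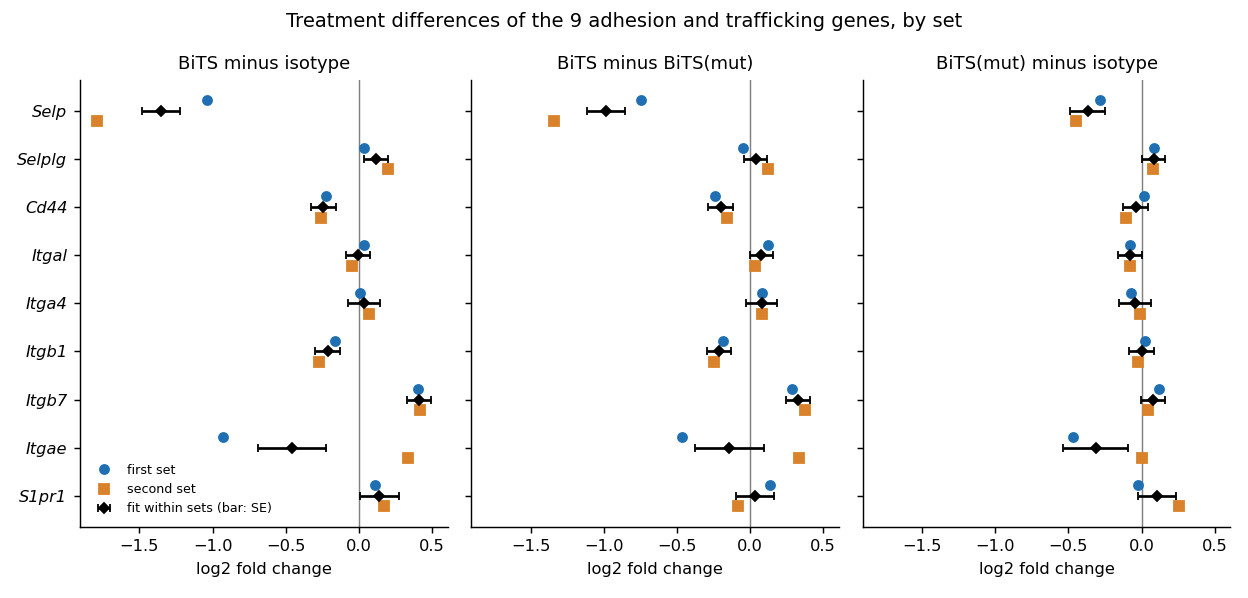
Log2 fold changes of the 9 genes in the 3 treatment comparisons. Circles are the difference in the first set, squares that in the second, and diamonds the fit within sets with its SE as a bar. Selp lies farthest from 0 on the left in both BiTS comparisons (-1.35 ± 0.13 and -0.99 ± 0.13), Itgb7 lies right of 0 in both (0.41 ± 0.08 and 0.33 ± 0.08), and the 2 points of Itgae lie on opposite sides of 0 there.

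Counted over all genes within sets, the edgeR test called 3.4% of 13996 in BiTS against isotype (1.81% higher, 1.59% lower), 0.972% in BiTS against BiTS(mut) (0.272% higher, 0.7% lower) and 0.05% in BiTS(mut) against isotype. Among the 9 genes the same threshold was passed by 2 in each BiTS comparison, Itgb7 higher and Selp lower, and by 0 in BiTS(mut) against isotype. Itgb7 lost its call against BiTS(mut) on leaving out any 1 of the 4 libraries compared (0.29 to 0.38), and against isotype without BiTS replicate 6 (0.39), and under spike-in scaling neither gene was called. With only the 4 libraries compared, 3 of the 9 passed against BiTS(mut), Itgb1 also being lower, where 442 of 13850 genes were called. In BiTS(mut) against isotype, the value of Selp ran from -0.58 to -0.18 on leaving out 1 library at a time. Since earlier results on these contrasts entered the choice of the genes, nothing is read from these counts. The median log2 fold change of the 9 genes was -0.003 in BiTS against isotype, 0.04 in BiTS against BiTS(mut) and -0.04 in BiTS(mut) against isotype, beside -0.005, 0.0005 and 0.0002 over all genes. Without the block, edgeR called 0 of 13996 genes (0%) in each of the 3 comparisons, with 176, 76 and 41 at an unadjusted p under 0.05 in the order above, and DESeq2 and limma-voom also called 0. The fit without the block left the differences of the 9 genes nearly in place and gave larger standard errors. Against isotype it gave -0.24 ± 0.25 for Cd44, -0.20 ± 0.34 for Itgb1, 0.03 ± 0.41 for Itga4 and -0.51 ± 0.62 for Itgae. Selplg was at 0.12 ± 0.14, Itgal at -0.002 ± 0.14 and S1pr1 at 0.14 ± 0.25. Against BiTS(mut) it gave -0.21 ± 0.25 for Cd44, -0.21 ± 0.34 for Itgb1 and 0.04 ± 0.25 for S1pr1, and for BiTS(mut) against isotype -0.36 ± 0.38 for Selp and 0.08 ± 0.13 for Itgb7. The fit within sets estimated each gene's spread with 2 residual and 45.93 prior degrees of freedom, the latter pooled from all genes, against 3 and 3.138 without the block.

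Between the sets, 6 of the 9 genes fell in the second set and 0 rose, where 26.9% of all genes fell and 25.9% rose. Itga4 fell by 0.78 ± 0.09 on the log2 scale (edgeR quasi-likelihood, adjusted p = 2.43e-10), with nearly the same size in the 3 treatments (-0.81, -0.75 and -0.75 for isotype, BiTS(mut) and BiTS). Itgb1 fell by 0.64 ± 0.07 (edgeR adjusted p = 4.83e-11) and Cd44 by 0.43 ± 0.07 (edgeR adjusted p = 1.51e-06), each lower in the second set in 3 of 3 treatments. Itgae fell by 1.06 ± 0.19 (edgeR adjusted p = 7.41e-06), from -1.60 in isotype to -0.33 in BiTS. Selp fell by 0.58 ± 0.10 (edgeR adjusted p = 5.40e-06), with -0.33 in isotype, -0.49 in BiTS(mut) and -1.08 in BiTS. The smallest of the 6 was S1pr1, at -0.35 ± 0.11 (edgeR adjusted p = 0.00527), lower in 3 of 3 treatments.

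Itgb7 (0.04 ± 0.07, edgeR adjusted p = 0.662), Selplg (-0.03 ± 0.07, 0.733) and Itgal (-0.07 ± 0.07, 0.411) did not pass between the sets. The sign of Itgb7 depends on the scaling, since it was -0.01 with library totals alone and -0.72 with spike-in scaling. The median of the 9 genes was -0.43, beside 0.02 over all genes. Under spike-in scaling the median of all genes moved to -0.74, 61 genes rose and 6062 fell, and 7 of the 9 genes fell. Under TMM scaling, 26.9% of all genes fell in the second set and 25.9% rose. Beside these values, 14 of 16 dendritic cell markers were lower and 1 higher in the second set (median -1.01). Of 4 tested macrophage and monocyte markers, 3 were lower and 1 higher (median -1.31). Of 11 CD8 T cell markers, 6 were higher and 2 lower (median 0.24). The part of these cell markers in the differences between the sets was not tested.

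**Figure D4:**
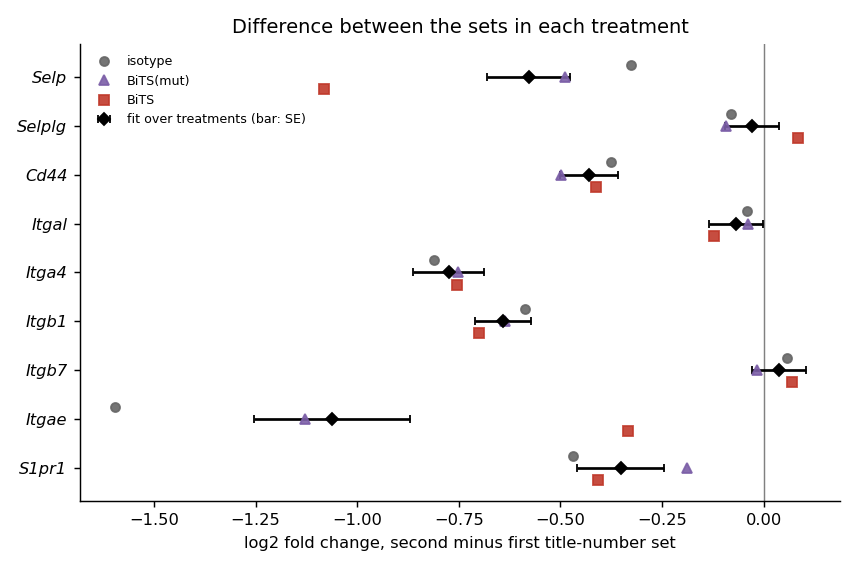
Log2 fold change of the second against the first set for the 9 genes. Circles, triangles and squares are the difference within each treatment, and diamonds the fit over treatments with its SE as a bar. Itga4 and Itgb1 lie left of 0 with treatments close together (-0.78 ± 0.09 and -0.64 ± 0.07), whereas Itgb7, Selplg and Itgal lie around 0.

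Other genes of adhesion and trafficking were described by a list of 137 genes in 8 roles, of which 112 were tested. The list was chosen with earlier results of these data known, so nothing is read from how many of its genes passed. Within sets, 6 of them were higher and 3 lower in BiTS than in isotype, or 8.04% of those tested beside 3.4% of all genes. Against BiTS(mut), 1 was higher and 5 lower, or 5.36% beside 0.972%. In BiTS(mut) against isotype, 0 were higher and 0 lower, with 1 higher when isotype replicate 1 was left out. The median log2 fold changes were -0.05, -0.02 and 0.003, and without the block 0 passed in any of the 3. For BiTS against isotype, fewer list genes passed on leaving out any 1 BiTS or BiTS(mut) library, and more passed on leaving out either isotype library. For BiTS against BiTS(mut), leaving out a library of either group gave 0 or 1 higher and 0 to 4 lower, with 0 in all without BiTS(mut) replicate 2, while leaving out isotype replicate 1 or 4 gave 4 or 5 higher and 8 or 9 lower.

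Of 3 tested genes in the role of other selectins and selectin ligands, 0 passed in any treatment comparison within sets, with medians of 0.10 against isotype and 0.06 against BiTS(mut). Of 17 tested genes of selectin ligand glycosylation and sulfation, 0 passed in any treatment comparison. The fucosyltransferase gene Fut7 was at -0.03 ± 0.30 and the core 2 branching enzyme gene Gcnt1 at 0.01 ± 0.17 in BiTS against isotype.

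Of 13 other integrin chain genes, 2 rose in BiTS against isotype and 0 fell. Itga7, a laminin receptor chain, was at 20.0 and 10.6 CPM in isotype and 29.9 and 17.8 in BiTS (0.65 ± 0.14, edgeR adjusted p = 0.00417). Itgb3, a beta chain of vitronectin receptors, was at 21.3 and 15.5 CPM in isotype and 32.8 and 20.4 in BiTS (0.53 ± 0.13, edgeR adjusted p = 0.0147). The calls held in 11 and 9 of 14 alternatives, and DESeq2 called neither gene. Without BiTS replicate 6 both were lost (0.52 and 0.57), as was Itgb3 without BiTS replicate 3 (0.46) or isotype replicate 1 (0.40). Against BiTS(mut), 0 of the 13 passed. The median of the 13 was -0.08 against isotype and -0.02 against BiTS(mut). Of 7 tested integrin ligand genes, 0 were higher and 2 lower in both BiTS comparisons, with medians of -0.51 against isotype and -0.47 against BiTS(mut). The median against isotype is the value of Vcam1 (-0.51 ± 0.43), at 1.30 CPM in BiTS and 1.86 in isotype. Cdh1 (0.142 and 0.722 CPM in the same order), Fn1 (0.401 and 0.639) and Spp1 (0.584 and 0.711) had even lower levels, so this median rests on genes near the floor. Icam1, the ligand of LFA-1, was at 168 and 124 CPM in isotype, 161 and 130 in BiTS(mut), and 124 and 101 in BiTS, lowest in BiTS in each set (-0.37 ± 0.09 against isotype, edgeR adjusted p = 0.00583). F11r, the junctional adhesion molecule JAM-A, fell by 0.53 ± 0.11 against isotype (edgeR adjusted p = 0.00186) and by 0.63 ± 0.11 against BiTS(mut) (edgeR adjusted p = 0.000312). Against isotype, Icam1 was called in 11 of 14 alternatives, not without BiTS replicate 3 (-0.34) or 6 (-0.40), and F11r in 13 of 14. Against BiTS(mut) they were called in 9 and 12 of 14, and neither was called without BiTS(mut) replicate 2 (-0.40 and -0.59). Icam1 was also not called there without BiTS replicate 3 (-0.33) or 6 (-0.40) or BiTS(mut) replicate 5 (-0.34). Dendritic cells also express Icam1 and F11r. Of 16 tested dendritic cell markers, 5 were lower in BiTS than in isotype and 4 than in BiTS(mut), beside 1.59% and 0.7% of all genes. In the second set, Flt3, Clec9a, Itgax, H2-Ab1 and Ccr7 of that list were higher in BiTS than in isotype, and all its other tested markers were lower. The part of these cell markers in the values of Icam1 and F11r was not tested.

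Of 29 tested genes of integrin activation and cytoskeletal linkage, 3 rose and 1 fell in BiTS against isotype. Rasgrp2, the exchange factor CalDAG-GEFI that activates Rap1, was at 33.0 and 43.6 CPM in isotype, 30.2 and 52.1 in BiTS(mut), and 46.5 and 77.2 in BiTS. It was highest in BiTS in each set (0.66 ± 0.11 against isotype, edgeR adjusted p = 4.72e-05, and 0.59 ± 0.10 against BiTS(mut), edgeR adjusted p = 0.000418). Fyb, the adaptor ADAP that links the T cell receptor to integrins, rose by 0.43 ± 0.09 against isotype (edgeR adjusted p = 0.0011), and Arhgap15, a Rac GTPase-activating protein gene, by 0.42 ± 0.10 (edgeR adjusted p = 0.0115). The actin crosslinker gene Actn1 fell by 0.34 ± 0.08 against isotype and by 0.36 ± 0.08 against BiTS(mut), and Vcl, which encodes vinculin, fell by 0.68 ± 0.17 against BiTS(mut) (edgeR adjusted p = 0.0341). Against isotype, Rasgrp2 was called in 13 of 14 alternatives, Fyb in 12, Arhgap15 in 10 and Actn1 in 8. Calls were lost for Fyb without BiTS replicate 3 (0.40), for Arhgap15 without BiTS replicate 6 (0.31) or isotype replicate 4 (0.29), and for Actn1 without BiTS replicate 3 (-0.25) or 6 (-0.42) or either BiTS(mut) library (-0.34 each). Against BiTS(mut), Rasgrp2 was called in 11 of 14, not without BiTS replicate 6 (0.53) or BiTS(mut) replicate 2 (0.50). Actn1 was called in 9 of 14, and lost its call without either library of either group (-0.44 to -0.26), as Vcl did without BiTS replicate 3 (-0.45) or either BiTS(mut) library (-0.73 and -0.63).

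The remaining roles changed little between treatments. Of 9 tested genes of hyaluronan, CD44 splicing and shedding, 0 passed against isotype and 1, the sheddase gene Adam8, fell against BiTS(mut), by 0.40 ± 0.09 (edgeR adjusted p = 0.00648), a call that was lost without BiTS replicate 3 (-0.29) or either BiTS(mut) library (-0.43 and -0.37). Of 14 exit and retention genes, 0 passed in either BiTS comparison. Cd69, whose product takes S1PR1 off the surface, was at -0.13 ± 0.10 against isotype. Of 20 transcription factor and TGF-beta genes, 1 rose against isotype, the receptor gene Tgfbr2 (0.40 ± 0.11, edgeR adjusted p = 0.0323), and 0 passed against BiTS(mut). The call of Tgfbr2 held in 4 of 14 alternatives, with 0.23 without isotype replicate 1. Klf2, the factor that drives S1pr1 in resting T cells, was at 0.57 ± 0.26 against isotype and did not pass (edgeR adjusted p = 0.282), on 29 to 90 counts per library.

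**Figure D5:**
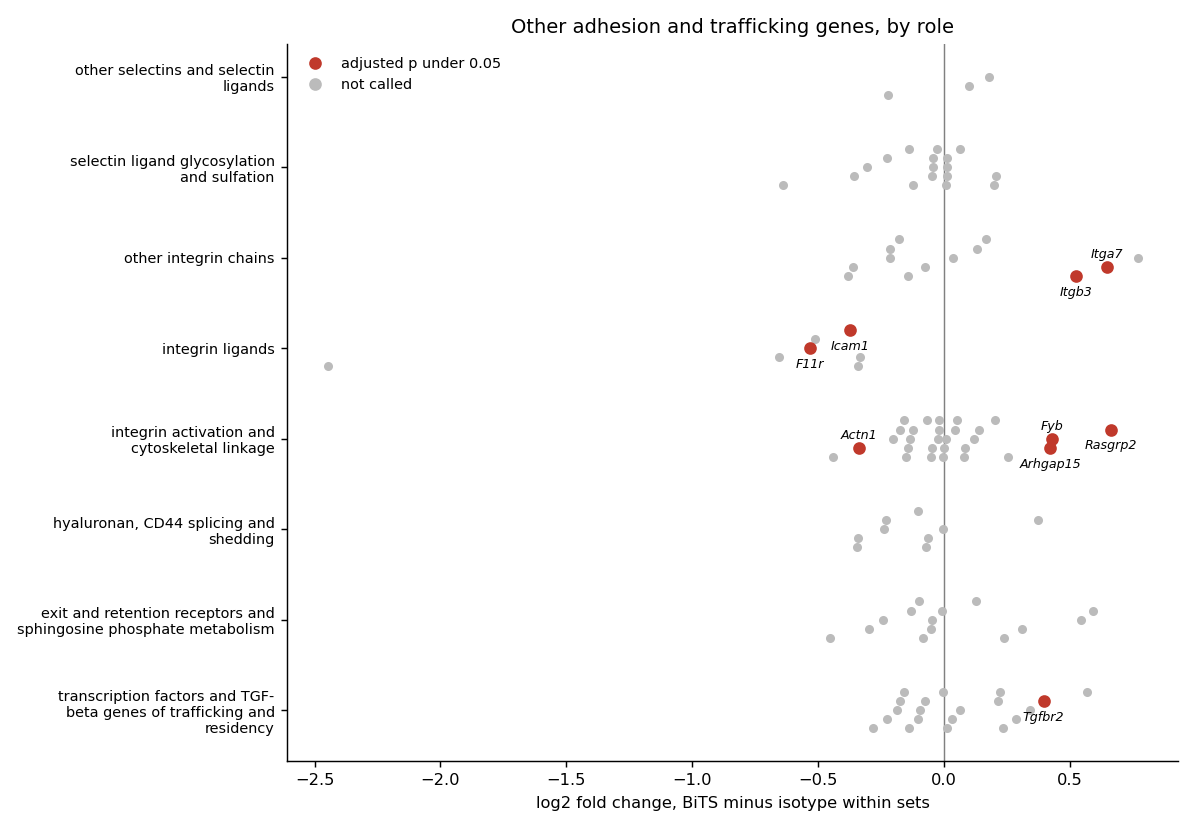
Log2 fold change of BiTS against isotype within sets for the 112 tested genes of the adhesion and trafficking list, 1 point a gene, in 8 rows by role, spread vertically for legibility. The 6 genes that rose and 3 that fell are red and named. The grey point farthest left is Cdh1 (-2.45 ± 0.90), at 0.142 and 0.722 CPM in BiTS and isotype.

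Between the sets, 53 of the 112 tested genes of the list fell, 18 rose and 41 did not pass in the second set (63.4% called beside 52.7% of all genes), with a median of -0.25. Of the 3 tested genes of other selectins and ligands, 2 fell, the ligand genes Cd24a (-1.20 ± 0.08) and Glg1 (-0.43 ± 0.07). In the glycosylation role 8 of 17 fell and 3 rose. Gcnt1 fell by 1.74 ± 0.14 (edgeR adjusted p = 6.87e-15), while Fut7 rose by 1.64 ± 0.24 (edgeR adjusted p = 1.09e-07). Of the 13 other integrin chains 8 fell and 0 rose, led by Itgax (-1.39 ± 0.08), which is also in the dendritic cell list, and Itgav (-0.95 ± 0.08). Of the 14 exit and retention genes 7 fell, with Cxcr4 at -1.37 ± 0.08 and Ccr7 at -0.65 ± 0.07, and 1 rose, Cd69 at 0.31 ± 0.08, which was -0.45 under spike-in scaling and was not called without BiTS(mut) replicate 2 or 5 (0.21 and 0.22). Of the 20 transcription factor and TGF-beta genes 12 fell and 5 rose, with Bhlhe40 at -0.89 ± 0.07, Ahr at -1.34 ± 0.15 and Klf2 at -0.80 ± 0.21.

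By likeness over the 6 libraries after the mean of each set was subtracted, among 9715 genes at a mean of at least 5 CPM, the genes closest to Selp were Lypla2 (Pearson r 0.999), Psmb4 (0.998), Mpzl3 (0.996), Ipo4 (0.996) and Orai1 (0.995). These correlations rest on 6 libraries that share treatments and are a description. Without subtracting the set means, r fell to 0.06 for Lypla2 and -0.23 for Psmb4 and stayed at 0.97 for Mpzl3, and Lypla2 and Psmb4 were higher in the second set in each treatment. The closest 5 genes were then Fbxo4, Zfc3h1, Serpinb9b, Cemip2 and Fam76a, and 0 were shared by both lists. Mpzl3 was at 58.1 and 58.4 CPM in isotype, 54.0 and 52.2 in BiTS(mut), and 47.8 and 40.9 in BiTS, a smaller spread than that of Selp.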

How the data were processed

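RNA of 6 libraries was sequenced after 48 h of stimulation. The authors deposited raw counts per gene, 1 table per library, with the exon intervals and summed exon length of each gene per the file headers. The submitters' processing notes name mm10 and DESeq2. No aligner, counter, annotation release or strand setting is given in the sources used here. Each table lists 49671 genes, and 92 ERCC transcripts that were spiked in took 3.36% to 7.54% of all counts and stayed out of gene totals. Symbols came by identifier from GENCODE M21 (49412 matched). The most that 0 counts allow, 3 counts, is 0.197 to 0.277 CPM, for counting error only.

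After filterByExpr and TMM scaling, counts were tested with edgeR 4.0.16 (limma 3.58.1, R 4.3.3; quasi-likelihood, two-sided, Benjamini-Hochberg over 13996 genes, called at an adjusted p under 0.05). The main design had 1 coefficient per group over all 6 libraries. A second added the title-number set as a replicate block, and the comparison of the sets had treatment as covariate. That numbers pair libraries comes from the titles and the data, not from a stated batch: deviations from group means correlated at 0.663, 0.74 and 0.728 within sets. TPM used the deposited counts and exon lengths.

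The 9 genes and all lists were chosen with earlier results of these data known. Genes named beside the 9 were, by role, at most 4 called list members with the smallest p per comparison, plus Itgb2, Sele, Klf2, Cd69, Fut7 and Gcnt1 whatever their values, the 5 genes most like Selp, and cell type markers. Cdh1 was named after its value was seen, since it stands apart in a figure. Of the marker lists, B cell genes summed to 63.7 to 104 CPM (0 of 4 passed in either BiTS comparison). NK and innate lymphoid genes summed to 167 to 217 CPM (2 of 7 higher in BiTS than in isotype, beside 1.81% of all genes). Stromal genes summed to 3.62 to 10.9 CPM (1 of 3 lower in that comparison, beside 1.59% of all genes), and 0 neutrophil and erythroid genes were tested. Alternatives were DESeq2 1.42.0, limma-voom, other scalings and filters, the 4 libraries compared, and leaving out each library. The steps were tested on simulated data. The result of 1 gene of the adhesion list is not reported here. The symbol Ccl19 matched more than 1 identifier.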

Additional observations from a re-analysis of the deposited data

Results flagged for a closer look

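Itgae was marked for a closer look because its differences from BiTS had opposite signs in the 2 sets. BiTS minus isotype was -0.93 on the log2 scale in the first set and 0.34 in the second. BiTS minus BiTS(mut) was -0.46 in the first set and 0.33 in the second. Each of these values compares 1 library with 1 library, on 43 to 148 counts, and the difference between the sets was not tested.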

How the results depend on the processing

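The 0 calls of the fits without a block became 476, 136 and 7 with the replicate block (BiTS minus isotype, BiTS minus BiTS(mut), BiTS(mut) minus isotype), and 11, 3 and 5 with no filter on low counts. DESeq2 within sets called 158, 50 and 2, and spike-in scaling 0, 0 and 1. With the 4 libraries compared, the calls were 295 and 442 for the BiTS comparisons, and with no filter 14 for BiTS(mut) minus isotype. Leaving out 1 library gave 130 (without BiTS replicate 6) to 937 (without isotype replicate 1) for BiTS minus isotype, 25 (without BiTS(mut) replicate 2) to 435 (without isotype replicate 4) for BiTS minus BiTS(mut), and 7 to 132 (without isotype replicate 1) for BiTS(mut) minus isotype. Counts between the sets stayed within 1.5 times of 7382, but spike-in scaling split them into 61 higher and 6062 lower against 3618 and 3764, and moved the median of all genes by -0.74. The difference of Itgb7 between the sets reversed to -0.012 with library totals alone and to -0.72 with spike-in scaling, and that of Cd69 to -0.45 with spike-in scaling. Over the alternatives within sets, the value of Selp ran from -1.76 to -1.08 against isotype and from -1.40 to -0.72 against BiTS(mut), and that of Itgb7 from 0.38 to 0.47 and from 0.29 to 0.50; Selp and Itgb7 were chosen with these contrasts known, so this supports nothing about them. The list genes called in a treatment comparison within sets kept their sign in each alternative with an adjusted p, and 0 of them were called under spike-in scaling. Between the sets, Selp was not called without a treatment term (adjusted p = 0.167, edgeR) and S1pr1 not by DESeq2 (adjusted p = 0.0534). Of the recomputed values of the 9 genes, 834 were counted as the same and 70 moved by more than the spread between libraries. Of those between the sets, 2 reversed sign, 1 gained a call and 2 lost it. Values between treatments were judged by size, so a call could change among the 834. The cause of these shifts was not tested. Depth limits Itgae most, with 43 to 148 counts.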
